A study of Mus musculus with 4 samples.

Results

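The genes of mitosis and DNA replication form a set of 47, of which 24 act in mitosis and 23 in DNA replication or at the entry into S phase. They were chosen by name, and every spot other than a control whose gene name, or whose older name resolved through its accession, is on the list was taken. The set is 47 of the 27670 gene names on the array, and all 47 were found, on 69 probes.

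Transcript levels were measured in 4T1-S and 4T1-A, both sub-lines of 4T1, a mammary carcinoma line of mouse. Each sub-line was represented by 2 one-colour Agilent arrays of total RNA, numbered replicates 1 and 2. The title of the series calls 4T1-S immunogenic, and the labels give no treatment, no growth conditions and no account of how either sub-line was derived. Whether the replicates are separate cultures is not stated, and the p-values cover no more than the spread seen among these 4 arrays, part of which may be technical.

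All 4 arrays lay on 1 slide, with each sub-line at its own positions, so slide position and sub-line cannot be told apart. Between 58.2 and 59.2 percent of spots were well above background in 4T1-S, against 54.9 to 56.3 percent in 4T1-A. The mammary epithelial markers Epcam, Cdh1, Krt8, Krt18, Krt14 and Krt5 were above background on all 4 arrays, but Epcam (-3.78 ± 0.21 on the log2 scale, SE), Krt14 (-2.06 ± 0.19) and Cdh1 (-1.11 ± 0.18) were lower in 4T1-S at an adjusted p under 0.05. The others were not called, with 0.52 ± 0.20 for Krt5 (arrays of 4T1-S above those of 4T1-A), -0.19 ± 0.18 for Krt8 and -0.14 ± 0.25 for Krt18. Of 8 leukocyte markers 4 were above background on all arrays and 2, Itgam and Adgre1, on none, and 0 of the 5 tested were called, with the myeloid markers Csf1r at 0.37 and Lyz2 at 0.42 and the arrays of 4T1-S above those of 4T1-A in both. The summed signal of the list was 0.629 and 0.725 times the array's 75th percentile in 4T1-S, against 0.525 and 0.506 in 4T1-A. Of 6 fibroblast markers 3 were never above background, with a sum of 1.20 and 1.14 in 4T1-S against 0.617 and 0.805 in 4T1-A. Both sums include markers that were not above background. The median deposited ratio of an array was also higher in 4T1-S, at 0.098 and 0.091, against 0.078 and 0.076 in 4T1-A. Of 4 endothelial markers 3 were never above background. The part of these markers in the results below was not tested.

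Proliferating cells copy their genome in S phase and divide it in mitosis, and the genes for each step are transcribed in waves. E2f factors, released from the retinoblastoma protein when cyclin D and cyclin E kinases phosphorylate it, switch on the genes of DNA replication. The MuvB complex, with B-Myb and Foxm1, switches on the genes of mitosis later in the cycle. In growing carcinoma cell lines both sets of transcripts are abundant, and their levels are widely used as a measure of proliferation.

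The promoters of the 2 sets carry different short words, which are shown here because the set was chosen by function and not by sequence. RefSeq promoters of build GRCm38.p6, each running from 250 bases before to 50 bases after the start of transcription, were matched for 39 of the 47 members. The genes without an entry were Ccna2, Ccnd1, Ccne2, Mcm4, Rfc2, Pole, Aurkb and Tpx2. Both strands were searched for the cell cycle homology region (CHR, TTTGAA or TTCGAA), to which MuvB binds, for the CCAAT box, to which the factor NF-Y binds, and for 4 forms of the E2F word (TTTCGCGC, TTTGGCGC, TTTCCCGC and TTTGCCGC). The CHR word stood in 15 of 21 mitosis promoters (71.4 percent) and in 3 of 18 replication promoters (16.7 percent), against 21.7 percent of the 27025 genes with a promoter entry. CCAAT stood in 18 of 21 mitosis promoters (85.7 percent) and 11 of 18 replication promoters (61.1 percent), against 41.1 percent of all. The E2F word stood in 1 of 21 mitosis promoters (4.76 percent) and 9 of 18 replication promoters, against 2.61 percent of all. Of the 39 members, 7 held none of these words, which says only that these letters are not in this window.

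The 6 promoters printed here, chosen after the values and the words had been seen, show these patterns in members that the results turn on. Capitals mark the words on either strand, and overlapping E2F words form a single longer run in Mcm6 and Mcm5. Each is written 5′ to 3′ along the gene's own strand. Cdk1 and Cenpa had the largest differences below 0 among the mitosis genes, Cdc20 was on the opposite side, Mcm6 and Mcm5 are subunits of the replicative helicase, and Ccne1 had the largest difference of all and none of the words. Cdk1 lies at chr10:69352863-69353162 on the minus strand, Cenpa at chr5:30666636-30666935 on the plus strand, and Cdc20 at chr4:118437294-118437593 on the minus strand. Mcm6 lies at chr1:128359656-128359955 on the minus strand, Mcm5 at chr8:75109259-75109558 on the plus strand, and Ccne1 at chr7:38107441-38107740 on the minus strand.
Cdk1: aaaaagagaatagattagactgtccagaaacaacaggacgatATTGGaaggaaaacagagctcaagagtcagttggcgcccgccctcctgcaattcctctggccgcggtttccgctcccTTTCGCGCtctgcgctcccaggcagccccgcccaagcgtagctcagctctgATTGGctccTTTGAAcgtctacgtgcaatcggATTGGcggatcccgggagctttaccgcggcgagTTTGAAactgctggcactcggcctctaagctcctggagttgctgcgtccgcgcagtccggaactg
Cenpa: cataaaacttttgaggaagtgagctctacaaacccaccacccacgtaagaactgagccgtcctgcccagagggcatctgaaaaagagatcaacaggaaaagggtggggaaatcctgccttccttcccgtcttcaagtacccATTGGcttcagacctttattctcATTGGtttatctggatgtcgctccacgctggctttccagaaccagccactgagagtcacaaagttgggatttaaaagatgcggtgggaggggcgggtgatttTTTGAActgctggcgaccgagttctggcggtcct
Cdc20: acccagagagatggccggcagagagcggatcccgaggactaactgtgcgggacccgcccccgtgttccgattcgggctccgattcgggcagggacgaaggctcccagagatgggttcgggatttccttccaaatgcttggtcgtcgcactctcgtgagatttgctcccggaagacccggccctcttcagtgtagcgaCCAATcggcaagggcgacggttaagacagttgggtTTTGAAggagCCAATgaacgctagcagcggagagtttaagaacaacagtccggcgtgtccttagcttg
Mcm6: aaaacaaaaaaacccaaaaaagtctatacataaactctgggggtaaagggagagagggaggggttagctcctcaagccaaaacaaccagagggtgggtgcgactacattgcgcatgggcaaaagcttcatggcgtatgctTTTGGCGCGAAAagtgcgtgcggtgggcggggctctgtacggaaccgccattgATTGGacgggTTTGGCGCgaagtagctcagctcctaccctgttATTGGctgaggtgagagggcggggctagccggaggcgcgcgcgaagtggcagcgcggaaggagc
Mcm5: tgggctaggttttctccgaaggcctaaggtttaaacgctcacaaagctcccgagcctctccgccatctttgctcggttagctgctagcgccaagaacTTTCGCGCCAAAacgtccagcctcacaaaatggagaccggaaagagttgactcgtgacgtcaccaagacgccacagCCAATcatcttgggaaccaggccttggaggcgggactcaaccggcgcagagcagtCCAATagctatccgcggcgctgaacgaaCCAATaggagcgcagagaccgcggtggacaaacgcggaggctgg
Ccne1: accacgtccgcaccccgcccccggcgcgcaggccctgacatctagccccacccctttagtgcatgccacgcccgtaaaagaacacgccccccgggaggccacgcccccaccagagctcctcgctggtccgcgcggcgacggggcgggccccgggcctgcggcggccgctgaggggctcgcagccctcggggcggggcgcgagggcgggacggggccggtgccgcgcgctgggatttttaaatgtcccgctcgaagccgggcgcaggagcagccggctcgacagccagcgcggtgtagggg
In these windows the CHR words of Cdk1 began at -71 and -15 from the start, that of Cdc20 at -18 and that of Cenpa at 16. The E2F words began at -131 in Cdk1, at -110, -106 and -47 in Mcm6, and at -153 and -149 in Mcm5. In the main setting, members with the same word did not share a direction. The 18 members with a CHR word had differences between 4T1-S and 4T1-A from -0.81 to 0.37 with a median of 0.04. The 10 with an E2F word had differences from -0.71 to 0.29 with a median of 0.09. The directions depend on the scaling. With scaling to each array's median, every member with an E2F word was lower in 4T1-S. Of those with a CHR word, only Aurka (0.08) and Cdc20 (0.03) were then higher in 4T1-S.

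Setting 4T1-S against 4T1-A asks whether the sub-lines differ in the transcripts of the cell cycle. No member passed the test in the main setting, with all 4 arrays, scaling to the 75th percentile and sub-line as the only factor. With scaling to each array's median 3 did (6.63% of all genes called). Further settings that called members are given in the closing sections. Values are the processed signal of a gene's brightest probe divided by the array's 75th percentile, called the signal ratio here, and a difference is the mean log2 signal ratio of 4T1-S minus that of 4T1-A with its standard error (SE, n = 2 arrays per sub-line). All 47 members were well above background on all 4 arrays. At an adjusted p under 0.05 over all 16161 genes tested (limma), 0 of 47 were called, against 7.01% of all genes. At an unadjusted p under 0.05 there were 5 of 47, with Ccne1 higher and Cenpa, Cdk1, Mad2l1 and Mcm2 lower, against 28.7% of all genes. In RNA of whole cultures, a smaller share of cells in a phase of the cycle and less RNA of a gene per cell cannot be told apart.

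In the main setting, the differences were small in size as well as short of the threshold. The median size, without its sign, was 0.15 for the members and 0.31 for all genes tested. All 47 members were above background on all 4 arrays, but only 14197 of the 16161 genes tested were. The shares of all genes given here were not matched to the members by brightness. A difference of at least 2-fold was measured for 0 of 47 members, against 5.20% of all genes. The 95% interval of the difference lay within 2-fold either way for 43 of 47 members, against 70.5% of all genes. It reached past 2-fold for Cdk1, Cenpa, Pola1 and Ccne1, for which these arrays leave a change of that size possible. In 32 of 47 members the difference between the sub-line means was smaller than the larger gap between single replicate arrays, against 52.7% of all genes. The arrays of the sub-lines did not overlap for 22 of 47 members, against 59.1% of all genes. Of these, 13 members were higher in 4T1-S (40.6% of all genes) and 9 lower (18.5% of all genes). With scaling to each array's median, Cenpa (-1.10) and Cdk1 (-1.005) had differences of at least 2-fold and were called. The median difference of the members was then -0.28, with -0.16 for all genes tested. Intervals were counted in the main setting alone, so further members may reach past 2-fold with that scaling.

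**Figure D1:**
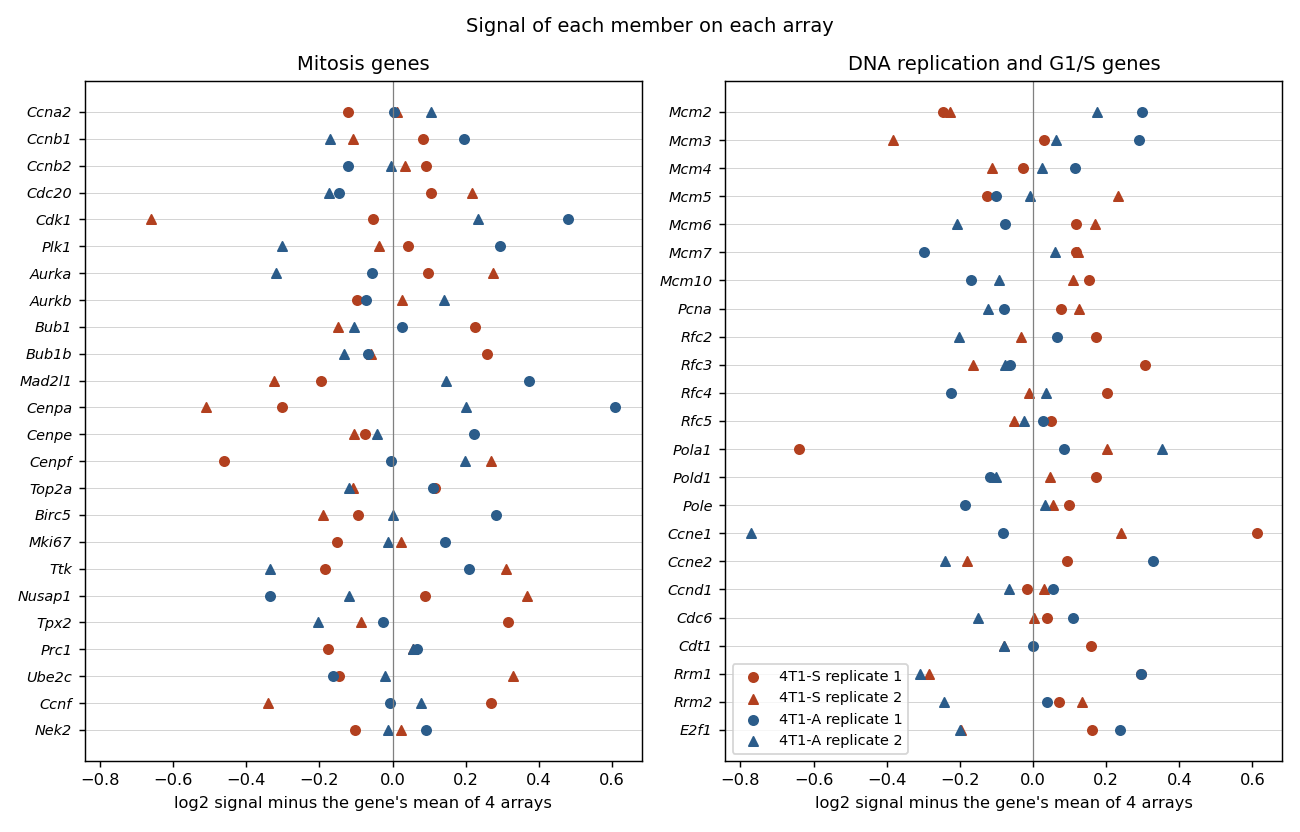
Log2 signal of each member on each array (x axis) minus the mean of that gene over all 4 arrays, with mitosis genes on the left and replication genes on the right. Red points are 4T1-S and blue points 4T1-A, circles replicate 1 and triangles replicate 2. Colours are interleaved for most genes, and both red points lie left of both blue ones with a clear gap for Cenpa, Mad2l1 and Mcm2.

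Among the cyclins that drive mitosis and their kinase, only Cdk1 had a difference of over 0.5 in size. Cdk1, the kinase that triggers entry into mitosis, had signal ratios of 10.01 and 6.57 in 4T1-S, against 14.5 and 12.2 in 4T1-A. Both 4T1-S arrays were below both 4T1-A arrays, and replicate 2 was the lower array in each sub-line. The difference was -0.71 ± 0.25, a 1.64-fold lower mean with an adjusted p of 0.110 and a 95% interval from -1.28 to -0.14. It was -0.41 without 4T1-S replicate 2, -1.017 without 4T1-S replicate 1, and -1.005 with scaling to the median, where it was called (adjusted p = 0.0454). Its cyclin partners showed no difference of that size. Ccnb1 had 5.38 and 4.71 in 4T1-S against 5.82 and 4.51 in 4T1-A, with a difference of -0.02 ± 0.21. A dimmer probe of Ccnb1 gave -0.36 ± 0.20, with both 4T1-S arrays below both 4T1-A arrays, and the third gave -0.004. Ccnb2 had 82.3 and 79.2 in 4T1-S against 71.0 and 77.0 in 4T1-A, with a difference of 0.13 ± 0.18. Ccna2, which acts in S phase and early mitosis, gave -0.11 ± 0.19, and Ccnf, the cyclin-like substrate receptor of an SCF ubiquitin ligase, gave -0.07 ± 0.24. For the brightest probes of these 4 genes, the interval of the difference reached at most -0.62 below and 0.55 above 0.

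The mitotic kinases had 5 members, of which only Aurka had arrays that did not overlap, against 59.1% of all genes. Aurka, which matures the centrosomes and spindle poles, had 59.0 and 66.7 in 4T1-S, against 53.0 and 44.2 in 4T1-A. Its difference was 0.37 ± 0.20 (adjusted p = 0.254), and it stayed above 0 in all 13 alternatives. Aurkb, the kinase of the chromosomal passenger complex, had 1.24 and 1.35 in 4T1-S against 1.26 and 1.46 in 4T1-A. Plk1, which acts from mitotic entry to cytokinesis, had 57.3 and 54.3 in 4T1-S against 68.2 and 45.1 in 4T1-A, so that both 4T1-S arrays lay between the 4T1-A arrays. Its difference was 0.01 ± 0.24. Nek2, which separates the centrosomes, gave -0.08 ± 0.19, and Ttk, the kinase that starts the spindle checkpoint, gave 0.13 ± 0.26.

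In the spindle checkpoint and the machinery it restrains, members lay on both sides of 0. Mad2l1, the checkpoint protein that binds Cdc20, had 3.29 and 3.01 in 4T1-S, against 4.88 and 4.17 in 4T1-A, with no overlap. The difference was -0.52 ± 0.19 (1.43-fold lower mean, adjusted p = 0.128), and with scaling to the median it was -0.81 and called (adjusted p = 0.0496). Cdc20, the activator of the anaphase-promoting complex that Mad2l1 holds back, had 111 and 119 in 4T1-S, against 92.8 and 91.03 in 4T1-A. Again the arrays did not overlap, here with 4T1-S above, and the difference was 0.32 ± 0.18 (adjusted p = 0.285). Bub1b, a subunit of the same checkpoint complex, gave 0.20 ± 0.20, Bub1, a checkpoint kinase at the kinetochore, 0.08 ± 0.21, and Ube2c, the ubiquitin-conjugating enzyme of the anaphase-promoting complex, 0.18 ± 0.22. With scaling to each array's median, Bub1b, Bub1 and Ube2c turned below 0 while Cdc20 stayed above it.

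The centromere and kinetochore genes gave the largest difference below 0 of the set. Cenpa, the histone H3 variant that marks centromeres, had 1.37 and 1.18 in 4T1-S, against 2.57 and 1.94 in 4T1-A. The arrays did not overlap, and the gap between the sub-lines was 1.99 times the larger gap between replicates. The difference was -0.81 ± 0.21, a 1.75-fold lower mean with a 95% interval from -1.31 to -0.31 and an adjusted p of 0.0626. Without 4T1-A replicate 2 it was -1.01 with an adjusted p of 0.0180 (11.3% of all genes called), and with scaling to the median -1.102 with an adjusted p of 0.0241, so the call depends on these choices. Cenpe, a kinesin motor at the kinetochore, had 58.1 and 56.9 in 4T1-S against 71.4 and 59.4 in 4T1-A, a difference of -0.18 ± 0.19. Cenpf, a large kinetochore and nuclear matrix protein, had 15.7 and 26.1 in 4T1-S against 21.6 and 24.8 in 4T1-A. The 4T1-S arrays of Cenpf enclosed those of 4T1-A, and the difference was -0.19 ± 0.26.

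Proteins of the spindle and its midzone included the largest difference above 0 among the mitosis genes. Nusap1, which bundles microtubules near chromosomes, had 10.3 and 12.5 in 4T1-S, against 7.68 and 8.91 in 4T1-A. The arrays did not overlap, with a difference of 0.45 ± 0.20, a 1.37-fold higher mean and an adjusted p of 0.184. Birc5, or survivin, of the chromosomal passenger complex had 95.8 and 89.7 in 4T1-S against 124 and 102 in 4T1-A, a difference of -0.28 ± 0.19. Tpx2, which activates Aurka on the spindle, gave 0.23 ± 0.21, and Prc1, which crosslinks the midzone, -0.12 ± 0.19.

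In the main setting, both widely used marks of proliferation gave nearly equal values. Mki67, the Ki-67 antigen, had 43.9 and 49.6 in 4T1-S, against 53.9 and 48.4 in 4T1-A. Top2a, the topoisomerase that disentangles replicated chromosomes, had 7.40 and 6.33 in 4T1-S, against 7.36 and 6.28 in 4T1-A. The arrays overlapped in both genes. The differences were -0.13 ± 0.19 with an interval from -0.57 to 0.31 for Mki67, and 0.01 ± 0.20 with an interval from -0.45 to 0.47 for Top2a. Neither interval held a 2-fold change. With scaling to each array's median the differences were -0.42 for Mki67 and -0.28 for Top2a, and neither was called.

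Within the Mcm2-7 helicase, whose 6 subunits form 1 ring, the members did not share a direction. Mcm2 had 2.67 and 2.70 in 4T1-S, against 3.89 and 3.57 in 4T1-A, with no overlap. Its difference was -0.47 ± 0.18 (adjusted p = 0.141), the largest below 0 among the replication genes and 3.84 times the larger gap between replicates. Mcm6 had 173 and 179 in 4T1-S, against 151 and 138 in 4T1-A, and there too the arrays did not overlap, with a difference of 0.29 ± 0.18 (adjusted p = 0.342). The others gave -0.35 ± 0.22 for Mcm3, -0.14 ± 0.18 for Mcm4, 0.11 ± 0.20 for Mcm5 and 0.24 ± 0.20 for Mcm7. With scaling to the median, Mcm5, Mcm6 and Mcm7 also lay below 0, Mcm6 at -0.01. The loading factors Cdc6 and Cdt1, which place the ring on origins, gave 0.04 ± 0.19 and 0.08 ± 0.19, and Mcm10, which acts when origins fire, gave 0.26 ± 0.18.

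At the replication fork, 6 of 8 members had a difference above 0, against 62.9% of all genes, the highest at 0.22, and 0 of 8 had one with scaling to the median. Pcna, the sliding clamp that tethers polymerases to DNA, had 112 and 116 in 4T1-S, against 101 and 97.5 in 4T1-A. The arrays did not overlap, yet the difference was only 0.20 ± 0.18 with an interval from -0.22 to 0.62 (adjusted p = 0.498). The subunits of the clamp loader gave 0.14 for Rfc2 and for Rfc3, 0.19 for Rfc4 and -0.002 for Rfc5. Of the catalytic polymerase subunits, Pold1 gave 0.22 ± 0.18 and Pole 0.15 ± 0.19. Pola1, which starts the new strands with primase, had 1.49 and 2.67 in 4T1-S, against 2.46 and 2.97 in 4T1-A. Its 4T1-S replicate 1 was the low array, the groups overlapped, and the difference of -0.44 had the largest standard error of the set (0.29). Without 4T1-S replicate 1 it was -0.02, and without 4T1-S replicate 2 it was -0.86.

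Ribonucleotide reductase makes the deoxyribonucleotides for replication. Rrm1, its large subunit, had 13.6 and 9.09 in 4T1-S, against 13.6 and 8.93 in 4T1-A. Replicate 1 was higher than replicate 2 by nearly the same factor in both sub-lines, and the difference was 0.01 ± 0.28. Rrm2, the small subunit that limits activity outside S phase, had 12.0 and 12.5 in 4T1-S against 11.7 and 9.65 in 4T1-A, a difference of 0.21 ± 0.19.

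The genes of entry into S phase held the largest difference of the set, that of Ccne1. Ccne1, cyclin E1, which activates Cdk2 at the end of G1, had 8.86 and 6.85 in 4T1-S, against 5.48 and 3.39 in 4T1-A. Both 4T1-S arrays were above both 4T1-A arrays, and 4T1-A replicate 2 was the low array. The difference was 0.85 ± 0.27, a 1.81-fold higher mean with an interval from 1.17-fold to 2.78-fold and an adjusted p of 0.0926. Without 4T1-A replicate 1 it was 1.20 with an adjusted p of 0.00468 (6.35% of all genes called), and over all 13 alternatives it ranged from 0.51 to 1.20 with adjusted p from 0.00468 to 0.326.

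No such difference appeared in the other entry genes. Ccne2, the second E-type cyclin, had 0.407 and 0.337 in 4T1-S, against 0.479 and 0.323 in 4T1-A, with a difference of -0.09 ± 0.24. Ccnd1, cyclin D1, the partner of Cdk4 and Cdk6, had 23.01 and 23.8 in 4T1-S, against 24.2 and 22.2 in 4T1-A. Its difference of 0.01 ± 0.18 had an interval from -0.41 to 0.44. E2f1, which activates replication genes, had 1.41 and 1.096 in 4T1-S, against 1.48 and 1.09 in 4T1-A, with a difference of -0.04 ± 0.23 and an interval from -0.57 to 0.50.

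**Figure D2:**
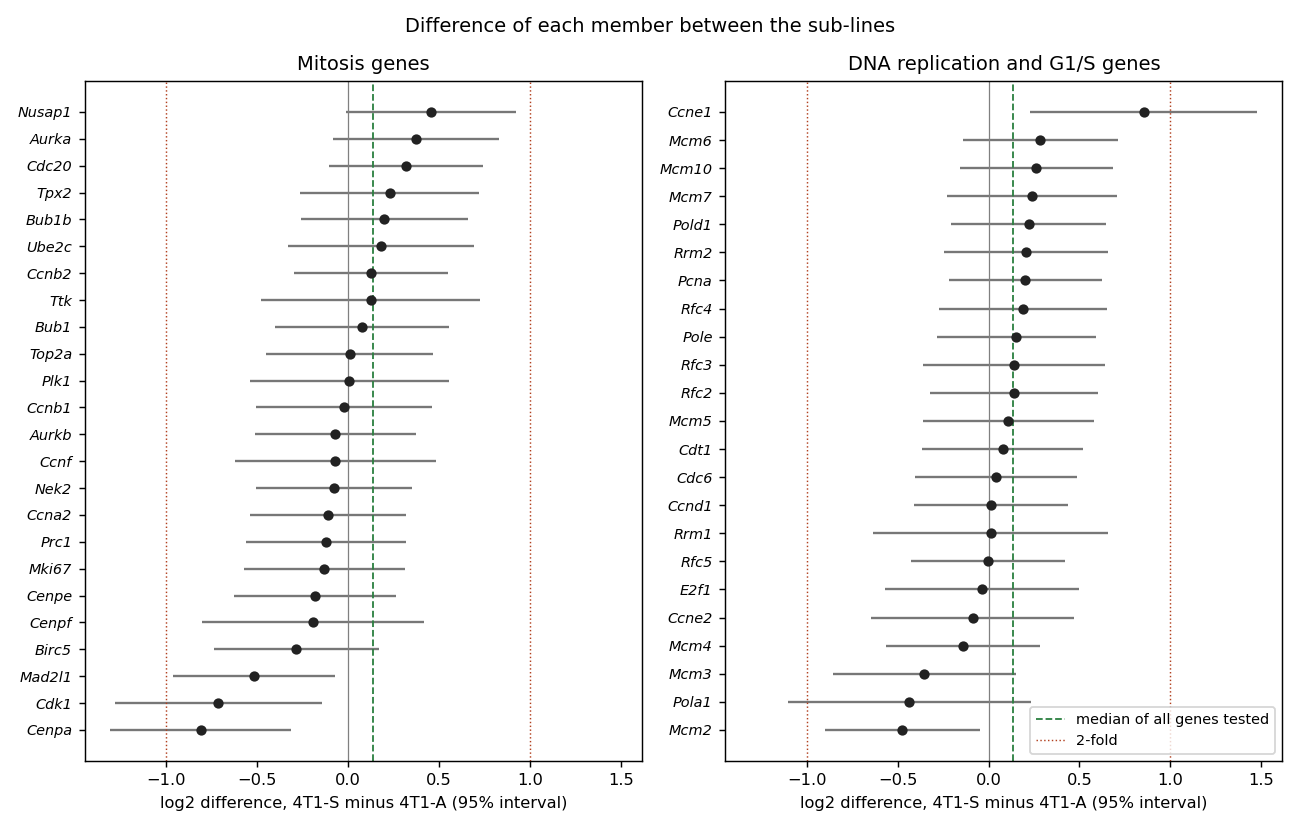
Log2 difference of each member, 4T1-S minus 4T1-A (x axis), with its 95% interval, sorted within mitosis genes (left) and replication genes (right). The dashed line is the median of all genes tested (0.13) and dotted lines mark 2-fold. Intervals reach past a dotted line for Cdk1 and Cenpa on the left and for Ccne1 and Pola1 on the right.

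As a set, the replication genes lay slightly above the mitosis genes in their differences between 4T1-S and 4T1-A. The median difference was 0.11 for the replication genes, with 16 above and 7 below 0, and -0.05 for the mitosis genes, with 11 above and 13 below 0. For all genes tested it was 0.13, and 18 of 24 mitosis genes and 12 of 23 replication genes lay below that value. The signs depend on the scaling. With scaling to each array's median, the median of all genes moved to -0.16, and only 3 mitosis genes and 1 replication gene lay above 0. That scaling shifts every difference equally, so it cannot change the counts of 18 and 12. Quantile normalization and cyclic loess each put 8 mitosis and 14 replication genes above 0. Below the median of all genes lay 17 and 12 with quantile normalization, 16 and 10 with cyclic loess, and 17 and 15 with normexp correction.

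The median over replication genes minus that over mitosis genes was 0.16 in the main setting and does not depend on a constant scaling of an array. Relative to each gene's mean over 4 arrays, this gap was 0.16 and 0.01 on the 4T1-S arrays, against -0.02 and -0.06 on the 4T1-A arrays. Both 4T1-S arrays were above both 4T1-A arrays, but 4T1-S replicate 2 was nearer to the 4T1-A arrays than to 4T1-S replicate 1. Pairing single arrays, the gap was 0.15 and 0.17 for 4T1-S replicate 1 against 4T1-A replicates 1 and 2, and 0.04 and 0.02 for 4T1-S replicate 2. Without 4T1-S replicate 1 it was 0.06, and without 4T1-S replicate 2 it was 0.26, so its size rests on 1 array. No test was made of it, since members are not replicates.

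Replicate arrays differed for these genes about as much as for all genes tested. These gaps are between single arrays, while the differences between the sub-lines are between means of 2 arrays. The 2 are unlike measures, also where a difference was given above as a multiple of such a gap. The median size of the gap between replicate arrays was 0.19 for the members in 4T1-S and 0.21 in 4T1-A, against 0.22 in each sub-line for all genes tested. In 4T1-A, replicate 1 was above replicate 2 for 33 of 47 members, with a median gap of 0.12, where for all genes the median gap was close to 0. The array with the lowest value of the 4 was 4T1-A replicate 2 for 19 of the 47 members, and the array with the highest value was 4T1-A replicate 1 for 18.

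**Figure D3:**
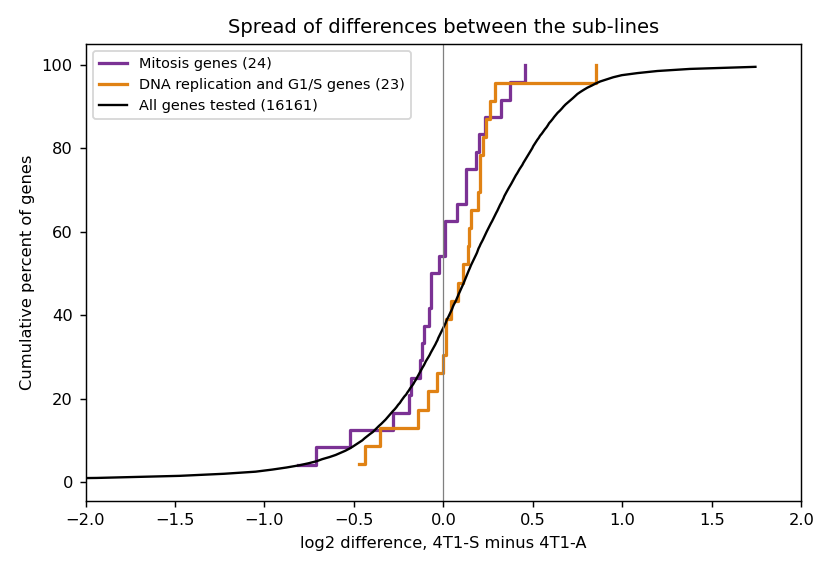
Cumulative percent of genes (y axis) with a log2 difference, 4T1-S minus 4T1-A, up to the value on the x axis, for the 24 mitosis genes, the 23 replication genes and the 16161 genes tested. Both coloured curves climb over a narrower range than the black one, and around 0 the mitosis curve lies to the left of the replication curve.

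Several probes measured 14 of the members above background, and they gave the same sign for 10 and opposite signs for Cdc6, Pold1, Rfc2 and Top2a. The median range of the differences between probes of a gene was 0.24, and it was under 0.5 in 13 of 14. With each probe as a feature, 0 of 63 member probes were called, against 4.58% of all 23669 probes tested, and 10 had an unadjusted p under 0.05, against 25.4% of all. The other probe of Ccne1 gave 0.59 ± 0.22 and that of Nusap1 0.54 ± 0.21, both on the same side as the brightest probe. The other probe of Mad2l1 had 1.89 and 2.002 in 4T1-S, against 3.87 and 3.32 in 4T1-A, and gave -0.88 ± 0.20 with an adjusted p of 0.0502 over all probes.

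Cenpe was the gene whose probes differed. The brightest probe gave -0.18 and another -0.17, while the third had 0.193 and 0.174 in 4T1-S, against 0.832 and 0.359 in 4T1-A, and gave -1.58 ± 0.37 (adjusted p = 0.0575). Both dimmer probes were below the array's 75th percentile on all 4 arrays. For Cenpf the other probe gave -0.63 ± 0.20, beside -0.19 for the brightest. The further probes of Rrm1, Top2a, Cenpa, Cdk1, Mcm4 and Pole that were not above background were not tested, so Cdk1 and Cenpa each rest on 1 probe. Averaged with that dim probe, the difference was -0.20 for Cdk1 and -0.11 for Cenpa. Probes of Ccnd1, E2f1 and Pcna are spotted 10 times per array, with a coefficient of variation among those spots between 3.97 and 9.05 percent for Pcna, 7.74 and 9.32 percent for E2f1, and 7.30 and 16.9 percent for Ccnd1.

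**Figure D4:**
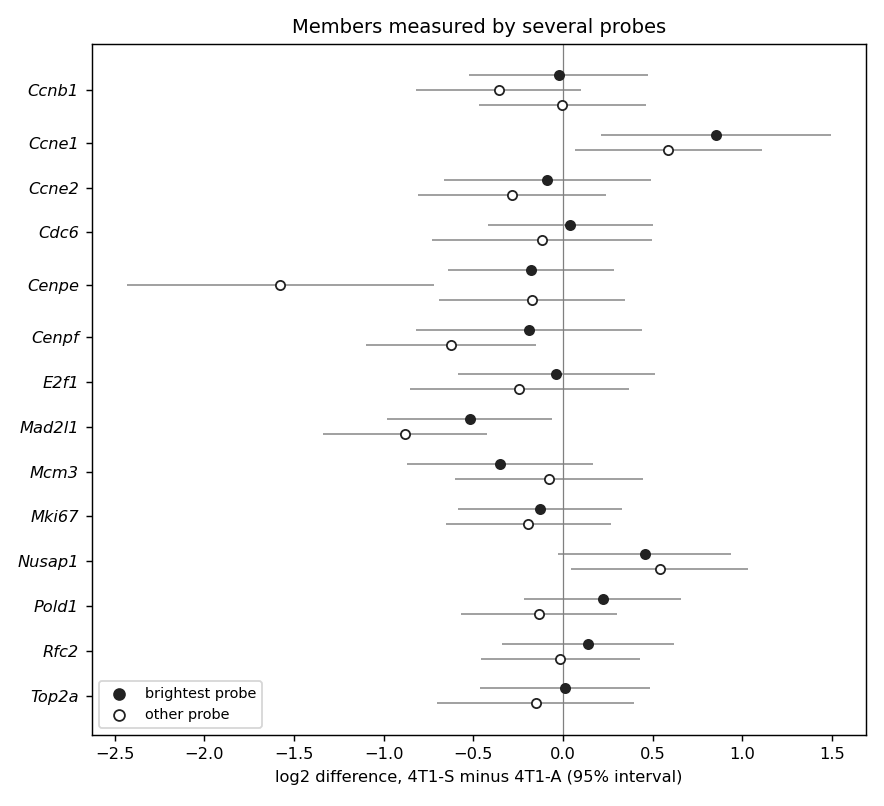
Log2 difference, 4T1-S minus 4T1-A (x axis), with its 95% interval, for each probe above background of the 14 members with several such probes. Filled points are the brightest probe of a gene and open points the others. Probes of a gene lie close together except in Cenpe, where the third gives -1.58.

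Other genes of the same pathways were counted from further lists. Of 33 further genes of replication forks and origins 0 were called, against 7.01% of all genes, with a median difference of 0.01 and a range from -0.55 to 0.35. The brightest, thymidine kinase Tk1, had 49.8 and 48.7 in 4T1-S, against 52.0 and 51.2 in 4T1-A. Of 13 genes of the anaphase-promoting complex, its subunits and its activator Fzr1, 0 were called as well, and the brightest, Anapc5, gave 0.02 ± 0.18.

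Of 27 further spindle, kinetochore and condensin genes 1 was called, a share of 3.70%, against 7.01% of all genes in either direction and 3.01% for lower values alone. The list had 6 members above and 21 below 0 and a median of -0.16. Spc25, a subunit of the Ndc80 complex that binds microtubules at kinetochores, fell to 1.49 and 1.63 in 4T1-S, against 3.21 and 2.56 in 4T1-A (-0.88 ± 0.20, adjusted p = 0.0438). In that list the arrays did not overlap for 3 of 27 genes with 4T1-S above (40.6% of all genes) and for 11 of 27 with 4T1-S below (18.5% of all genes).

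Of 7 inhibitors of cyclin-dependent kinases, 4 were tested and 1 was called, against 7.01% of all genes in either direction and 3.01% for lower values alone. Cdkn2d, or p19Ink4d, which inhibits Cdk4 and Cdk6, fell to 0.728 and 0.649 in 4T1-S, against 1.34 on both arrays of 4T1-A (-0.96 ± 0.18, adjusted p = 0.0248). Cdkn1a gave -0.07, Cdkn1b -0.12 and Cdkn2c -0.29. Cdkn2a and Cdkn2b, which lie next to each other in the genome, were above background on no array and were not tested, nor was Cdkn1c. Of 18 regulators of the Rb, E2f and MuvB group 0 were called, against 7.01% of all genes. This group had 12 above and 6 below 0 and a median of 0.21, which turned to 7 above, 11 below and -0.08 with scaling to the median. Its brightest member, the E2f partner Tfdp1, had 13.6 and 18.8 in 4T1-S, against 11.8 and 15.3 in 4T1-A, a difference of 0.25 ± 0.24. Of 13 further cyclins and kinases of G1 and mitotic entry 0 were called, against the same 7.01%, and the brightest, Cks1b, gave 0.09 ± 0.18.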

How the data were processed

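RNA of 4T1-S and 4T1-A was hybridised to 4 one-colour arrays after Cy3 labelling of amplified RNA, per the labels' protocols. The deposited intensity of each spot comes from Agilent Feature Extraction, version 9.1 per the submitters' processing notes. Per the file headers, the processed intensity is corrected for background and not scaled between arrays. The deposited series table holds a ratio, which the values show to be that intensity over the array's 75th percentile, and it was used as an alternative with 0.001 added before log2. Its column medians were 0.098 and 0.091 in 4T1-S and 0.078 and 0.076 in 4T1-A. Its scale is not given in the sources used here.

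Each array's processed intensity was divided by its 75th percentile over 43379 spots and set on the log2 scale, without controls and without the 5 to 9 spots per array with an outlier flag. That percentile was 405 and 498 in 4T1-S and 467.5 and 577 in 4T1-A. Spots of a probe were averaged. Gene names come from the file of 4T1-S replicate 2, because the file of 4T1-A replicate 1 holds altered names and 3 significant digits. Of 41174 probes 22951 were named by accession, 6659 by symbol and 3109 by an older symbol through a RefSeq table (assembly GRCm38.p6). The remaining 8455 were left with the array's own name. No build is named in the array files. Each gene takes the values of its brightest probe, by mean over arrays, and was tested if 4T1-S, 4T1-A or both had it well above background on each of their arrays. This left 16161 genes.

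Differences were tested with limma 3.58.1 in R 4.3.3 (lmFit and eBayes, a 2-sided test with 2 residual and 5.73 prior degrees of freedom), with Benjamini-Hochberg adjustment over all genes or all probes. The procedure was tested on simulated data. Alternatives were normexp correction with an offset of 50, quantile, median and cyclic loess scaling, other filters, the mean of a gene's probes, the deposited table, the replicate number as a block, and leaving out each array. The number of arrays limits the precision. Members and lists were chosen with earlier results of these data known. Values on every array are given for called members, the largest differences in each direction, entry genes and proliferation marks, and for other members by choice. From the related lists up to 4 called genes or else the brightest are named. Genes named beyond this were chosen after their values were seen.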

Additional observations from a re-analysis of the deposited data

How the results depend on the processing

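Of the 47 members, 43 were called under none of the 13 alternatives, and no called value changed sign. The sign was kept in all of them for 17 members and changed in some for 30. Scaling to each array's median called 3 members (Cenpa, Cdk1 at -1.005 and Mad2l1 at -0.81) and 3 member probes, against 6.63% of all genes, and put the members' median at -0.28 with that of all genes at -0.16. Cyclic loess called 1 member probe. Leaving out 1 array called 0 to 1 members and 0 to 3 member probes: Ccne1 without 4T1-A replicate 1 (6.35% of all genes called) and Cenpa without 4T1-A replicate 2 (11.3%). It moved the members' median between -0.029 and 0.11, and replication minus mitosis between 0.061 and 0.26. With an array left out, the lone array of its sub-line is assumed to vary like the others.

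The count of all genes called, 1133 in the main setting, was 514 with normexp correction, 744 with quantile normalization, 271 with no filter on background, 616 with genes above background on all arrays, and 310 to 1827 with 1 array left out. The cause was not tested, except that the filters change the number of genes tested. With the replicate number as a block 3683 genes (22.8%), 4 members (Ccne1, Cenpa, Cdk1 and Mad2l1) and 7 member probes were called. Deviations of same-numbered arrays correlated at 0.42 over 16161 genes, a value that is equal for both numbers by construction with 2 arrays per sub-line, and the labels do not say that the numbers mark a shared culture or day.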

Other observations

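In the Rb, E2f and MuvB group, 3 genes named after their values were seen had the largest differences above 0, none of them called. Rb1, the retinoblastoma protein, had 2.19 and 2.90 in 4T1-S, against 1.07 and 1.52 in 4T1-A (0.98 ± 0.24, adjusted p = 0.0545). Mybl2, which encodes B-Myb of the MuvB complex, had 14.5 and 13.8 in 4T1-S, against 9.48 and 8.27 in 4T1-A (0.67 ± 0.19, adjusted p = 0.0702). E2f2 had 12.3 and 11.7 in 4T1-S, against 7.74 and 7.85 in 4T1-A (0.62 ± 0.18, adjusted p = 0.0774). The arrays of the sub-lines did not overlap in any of these genes, as for 59.1% of all genes (40.6% with 4T1-S above). In the whole group they did not overlap for 6 of 18 genes, with 4T1-S above in 5 and below in 1. Among the G1 genes, Cks2, a small subunit of cyclin-dependent kinases, had 18.4 and 16.0 in 4T1-S, against 30.8 and 24.5 in 4T1-A (-0.68 ± 0.21, adjusted p = 0.0838), whereas its relative Cks1b gave 0.09. Cdk6 gave 0.55 ± 0.19 and Cdk4, the other kinase of cyclin D, -0.35 ± 0.19, and neither was called.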
